A study of Mus musculus with 6 samples.

Results

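The 10 genes described here, Psmb8, Psmb9, Psmb10, Psme1, Psme2, Tap1, Tap2, Tapbp, Tapbpl and Erap1, carry out the steps that turn cellular proteins into peptides for MHC class I molecules. They were chosen by name, and all 10 had a row among the 23644 genes of the deposited table. RNA-seq libraries were made from 4T1, a line of mouse mammary tumour cells, with 3 libraries of cells in which Carmil3 was knocked out and 3 of wild-type control cells. The knockout cells are clones that each descend from 1 cell, so what sets a clone apart from the parental line and what the deletion does cannot be told apart. The method of deletion, the number of clones and the independence of the 3 cultures per group are not given in the labels, so p-values refer to the spread between these libraries, which may be technical. Both groups grew in DMEM with serum and antibiotics, and the labels name no cytokine or other agent given to the cells.

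Proteins of the cytosol and nucleus are cut into peptides by the proteasome. In cells exposed to interferon-gamma, 3 catalytic subunits of the 20S core, Psmb5, Psmb6 and Psmb7, are replaced in newly assembled particles by the immunoproteasome subunits Psmb8, Psmb9 and Psmb10, and the PA28 activator made of Psme1 and Psme2 docks on the core. The transporter formed by Tap1 and Tap2 carries the peptides into the endoplasmic reticulum, Erap1 trims their amino ends, and tapasin (Tapbp) and its relative TAPBPR (Tapbpl) help to load and select them on class I molecules. Tumour cells often express these genes at a low level that interferon raises, and the family is studied for that reason in tumour immunity.

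Of the 10 genes, 4 were lower in Carmil3 knockout cells than in wild-type cells: Psmb8, Tap1, Erap1 and Psmb10. None was higher, and 6 did not pass the test, which was limma on log2(FPKM + 1) with Benjamini-Hochberg adjustment over 11171 genes and a threshold of 0.05. FPKM scales reads by exon length and by library depth. Levels of different genes are set side by side on that scale, and their order depends on the exon length used for each gene. Of all genes tested, 18.7% were lower and 16.9% higher in knockout cells by the same rule. At an unadjusted p under 0.05, 5 of the 10 were lower and 0 higher, against 23.8% and 22.3% of all genes tested. Limma-voom on recovered reads called 5 lower and 0 higher, against 20.1% and 18.5% of all genes. The knockout libraries all lay below the wild-type libraries for 5 genes, the 4 called genes and Tapbp, and above them for 0. Over all genes tested, that held for 26.4% and 24.2%. The median log2 change was -0.20 over the 10 genes and -0.01 over all genes tested. Knockout replicate 3 lay apart from the other knockout libraries (-15.55 on the second principal component, against 6.73 and 9.56). Without it, 6 of the 10 were lower, Tap2 and Tapbp being added. In that setting 2218 of the 11171 genes tested were lower and 2041 higher, against 2087 and 1886 with all libraries.

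**Figure D1:**
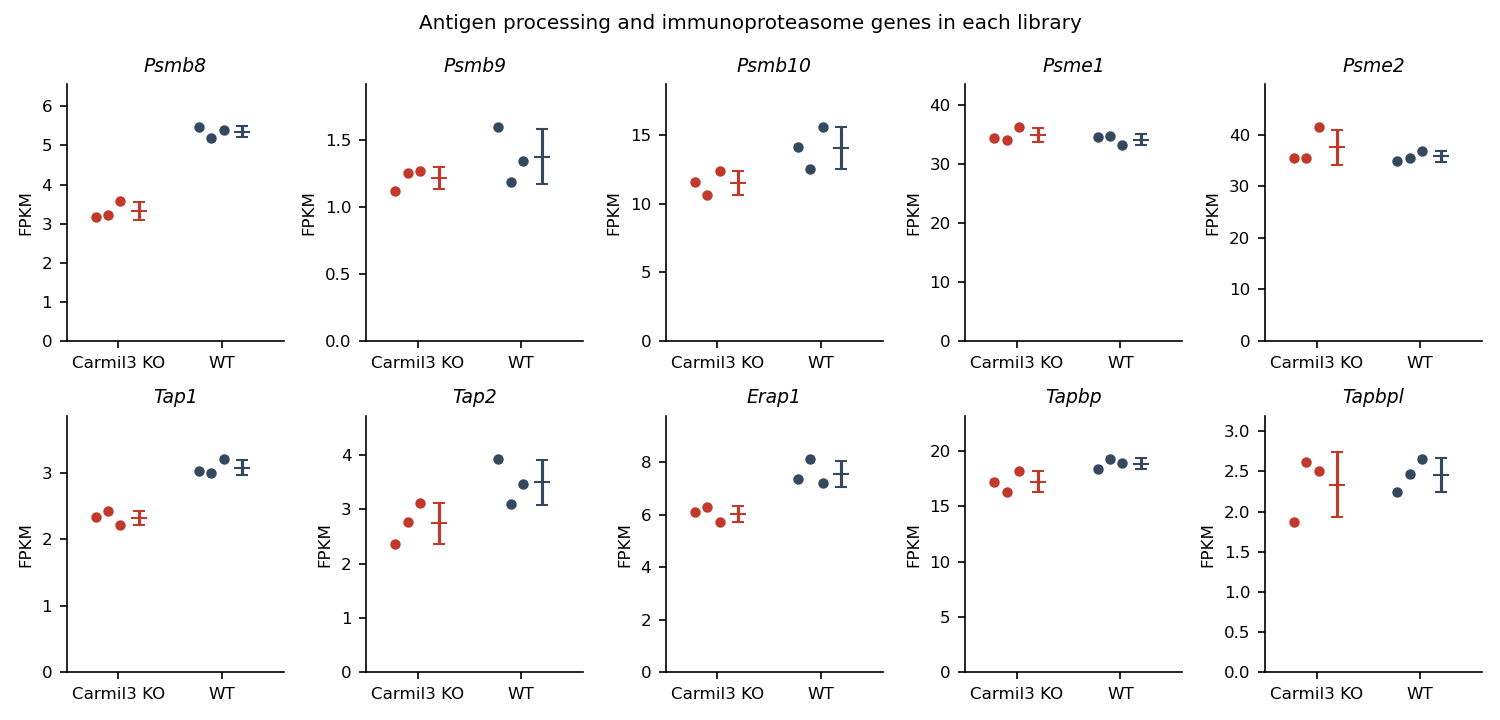
Level of each gene in FPKM on a vertical axis that starts at 0, with 1 point per library, Carmil3 knockout in red and wild type in dark blue, and the mean ± SD beside the points (n = 3). The knockout points of Psmb8 lie well below its wild-type points, and the points of Psme1 and Psme2 lie at about the same height in both groups.

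Recovered read totals, inferred from the spacing of the deposited values, lay between 17779104 and 19046744 per library. Carmil3 itself, on chromosome 14, was listed at 0, 0.0118 and 0.0241 FPKM in knockout libraries and at 0.036, 0.0246 and 0.0117 FPKM in wild-type libraries, which is too low to check the labels. The 8 mammary tumour epithelial markers, Epcam, Cdh1, Esrp1 and 5 keratins, were all lower in knockout cells, with a summed level of 428.1 to 472.9 FPKM in knockout libraries and 1017 to 1111 FPKM in wild-type libraries. Krt8 and Krt18 made up most of these sums and remained abundant in both groups, so the sums hide larger falls of other markers. Mean FPKM in knockout and wild-type cells was 0.0875 and 19.7 for Epcam, 0.149 and 27.9 for Krt7, and 0.773 and 12.4 for Cdh1. It was 0.00577 and 3.53 for Esrp1 and 0.0105 and 2.81 for Krt14. Leukocytes express the immunoproteasome constitutively. Of 15 leukocyte markers, 8 had a row, and their summed level was 4.74 to 6.83 FPKM in knockout libraries and 15.4 to 16.6 FPKM in wild-type libraries. In wild-type libraries most of that sum was S100a8, at 1.14 to 2.15 FPKM in knockout and 11.2 to 12.4 FPKM in wild-type libraries, while Ptprc, the pan-leukocyte marker, was at most 0.00614 FPKM in any library. Endothelial markers summed to at most 0.0682 FPKM in any library. Of 4 fibroblast markers with a row, Pdgfra was higher and Col1a1 lower in knockout cells, and their summed level was 17.8 to 18.3 FPKM in knockout libraries and 11.4 to 12.01 FPKM in wild-type libraries. The part of the epithelial, S100a8 and Pdgfra differences in the changes described here was not tested. In RNA from whole cultures, fewer cells with a transcript and less of it per cell cannot be told apart.

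The promoters of these genes are known for elements that respond to interferon. RefSeq windows of 250 bases before to 50 bases after the start site, on GRCm38.p6, were found for 8 of the 10 genes, and not used for Tap2 and Tapbpl. They were searched on both strands for the interferon-stimulated response element core (ISRE, GAAANNGAA), the gamma-activated site (GAS, TTCNNNGAA), the GC box (GGGCGG) and the NF-kB consensus. The windows of Tap1 and Psmb9 are shown by that of Tap1, because the genes run in opposite directions from start sites 226 bases apart and their windows share 275 bases. The other sequences are shown because Psmb8 changed most, Erap1 was also lower, and Psme1 was not called. Capitals mark matches to a motif, and each sequence reads 5′ to 3′ on the strand of its gene.
Tap1, chr17:34187306-34187605, plus strand: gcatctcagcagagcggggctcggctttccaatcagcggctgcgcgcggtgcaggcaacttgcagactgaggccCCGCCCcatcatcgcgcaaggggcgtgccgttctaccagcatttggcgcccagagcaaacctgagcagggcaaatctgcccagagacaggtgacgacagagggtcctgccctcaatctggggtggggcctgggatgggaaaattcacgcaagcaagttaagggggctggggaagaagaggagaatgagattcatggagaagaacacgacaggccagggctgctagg
Psmb8, chr17:34197945-34198244, plus strand: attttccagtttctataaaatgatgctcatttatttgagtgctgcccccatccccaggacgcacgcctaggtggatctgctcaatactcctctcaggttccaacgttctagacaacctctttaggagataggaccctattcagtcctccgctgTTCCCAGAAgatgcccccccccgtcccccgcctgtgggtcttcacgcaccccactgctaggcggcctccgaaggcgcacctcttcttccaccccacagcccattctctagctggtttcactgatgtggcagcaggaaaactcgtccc
Erap1, chr13:74639603-74639902, plus strand: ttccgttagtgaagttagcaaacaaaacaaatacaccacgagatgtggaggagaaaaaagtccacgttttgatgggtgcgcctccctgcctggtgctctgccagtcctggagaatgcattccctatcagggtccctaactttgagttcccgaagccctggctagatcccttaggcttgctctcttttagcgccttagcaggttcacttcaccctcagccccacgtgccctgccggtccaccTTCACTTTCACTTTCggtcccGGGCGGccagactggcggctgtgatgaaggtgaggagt
Psme1, chr14:55578244-55578543, plus strand: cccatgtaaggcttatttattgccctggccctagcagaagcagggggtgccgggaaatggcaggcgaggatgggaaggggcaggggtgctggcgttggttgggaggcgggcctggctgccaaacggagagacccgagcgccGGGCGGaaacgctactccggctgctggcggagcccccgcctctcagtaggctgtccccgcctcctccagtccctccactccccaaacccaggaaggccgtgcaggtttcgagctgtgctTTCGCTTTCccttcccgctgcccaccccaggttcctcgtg

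The window of Psmb8 held 1 GAS match, TTCCCAGAA, at bases 154 to 162 of the window. A GAS match was found in 8.3% of 32851 promoter windows. The window of Erap1 held 2 overlapping matches to the ISRE core on the opposite strand, and that of Psme1 held 1. ISRE core matches occurred in 8.56% of all windows. The single GC box in the Tap1 window and that in the Psmb9 window are the same bases, chr17:34187380-34187385, and 35.7% of all windows held one. None of the 8 genes had a match to the NF-kB consensus in its window (8.46% of all windows did), and that of Psmb10 held none of the 4 motifs. Genes called lower and genes not called thus both included windows with and without an interferon-type match, and these matches describe letters in a window only.

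Psmb8 had the largest change of the 10. The gene encodes the immunoproteasome subunit that takes the place of Psmb5 and has chymotrypsin-like activity (ENSMUSG00000024338, chromosome 17, 34197721 to 34201454, plus strand, GRCm38). It measured 3.17, 3.22 and 3.59 FPKM in knockout replicates 1 to 3, against 5.47, 5.20 and 5.39 FPKM in wild-type replicates 1 to 3. The groups were well apart, and the highest knockout library lay far below the lowest wild-type library. The means were 3.32 ± 0.229 FPKM in knockout and 5.35 ± 0.137 FPKM in wild-type cells (SD, n = 3), and the knockout mean was 0.621 times the wild-type mean. The log2 change was -0.56 ± 0.065 (SE) with limma's adjusted p = 0.000323. The values fit whole reads if the authors' exon length for Psmb8 was 2736 bases, shorter than the 3381 bases of the annotation used here. That gives 165, 163 and 178 reads in knockout and 272, 253 and 276 reads in wild-type libraries.

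Psmb9, the immunoproteasome subunit that takes the place of Psmb6 (ENSMUSG00000096727, chromosome 17, 34181987 to 34187764, minus strand), had the lowest mean FPKM of the 10. It measured 1.12, 1.26 and 1.27 FPKM in knockout and 1.59, 1.18 and 1.34 FPKM in wild-type libraries. The groups overlapped, and wild-type replicate 1 was the highest of the 6. These values rest on 78 to 85 reads in knockout and 77 to 106 reads in wild-type libraries, scaled by an exon length of 3660 bases. The log2 change was -0.10, with a 95% confidence interval from -0.30 to 0.10 and adjusted p = 0.419 (limma).

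Psmb10, which takes the place of Psmb7 (ENSMUSG00000031897, chromosome 8, 105935735 to 105938444, minus strand), was the most abundant of the 3 immunosubunits. It measured 11.6, 10.6 and 12.4 FPKM in knockout libraries, against 14.1, 12.5 and 15.6 FPKM in wild-type libraries. The gap between the groups was narrow, with knockout replicate 3 at 12.42 and wild-type replicate 2 at 12.54 FPKM. The means were 11.5 ± 0.900 FPKM in knockout and 14.1 ± 1.53 FPKM in wild-type cells (SD, n = 3), and the log2 change was -0.27 ± 0.086 (SE) with limma's adjusted p = 0.0428. This call was lost without knockout replicate 1 (adjusted p = 0.0871, limma) or 2 (0.129) and without wild-type replicate 1 (0.116) or 3 (0.128). The 20 tested genes closest to Psmb10 on either side had a median change of -0.21, close to the median of -0.22 over all 399 genes of chromosome 8 with a mean of at least 5 FPKM. With the local median subtracted, the log2 change of Psmb10 was -0.06 with adjusted p = 0.687 (limma).

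The level of each immunosubunit was then set against that of its constitutive counterpart within each library, so that the scaling of the libraries cancels. The ratio of Psmb8 to Psmb5 was 9.84%, 9.49% and 9.79% in knockout libraries, against 18.4%, 20.8% and 16.2% in wild-type libraries. The groups did not overlap, and the difference in log2 ratio was -0.92, where the SD within groups was 0.13. An exact two-sided permutation test gave p = 0.1, the smallest that 3 against 3 libraries allow. Psmb5 itself measured 34.3 ± 2.25 FPKM in knockout and 29.3 ± 4.08 FPKM in wild-type cells (SD, n = 3), and its log2 change of 0.23 did not pass (adjusted p = 0.106, limma). Without wild-type replicate 3, Psmb5 was called higher, with a log2 change of 0.32 (adjusted p = 0.0345, limma). The other counterparts, Psmb6 and Psmb7, did not pass either, with log2 changes of -0.14 and -0.23 (adjusted p = 0.351 and 0.0862, limma), and Psmb7 was called lower without wild-type replicate 2 (adjusted p = 0.0148, limma). Psmb9 was at 2.83% to 3.26% of Psmb6 in knockout and 2.54% to 3.56% in wild-type libraries (log2 difference -0.03, exact permutation p = 1). Psmb10 was at 41.2% to 44.3% of Psmb7 in knockout and 42.7% to 45.5% in wild-type libraries (log2 difference -0.05, exact permutation p = 0.3). In both groups, then, Psmb10 was the subunit closest in FPKM to its counterpart and Psmb9 the farthest from it. This order depends on the exon lengths used, whereas the comparison of the groups does not. The other 2 ratios examined, Psme1 to Psme2 and Tap1 to Tap2, had log2 differences of -0.03 and -0.06 (exact permutation p = 0.5 and 0.7). With 3 against 3 libraries this test cannot give a p under 0.1.

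**Figure D2:**
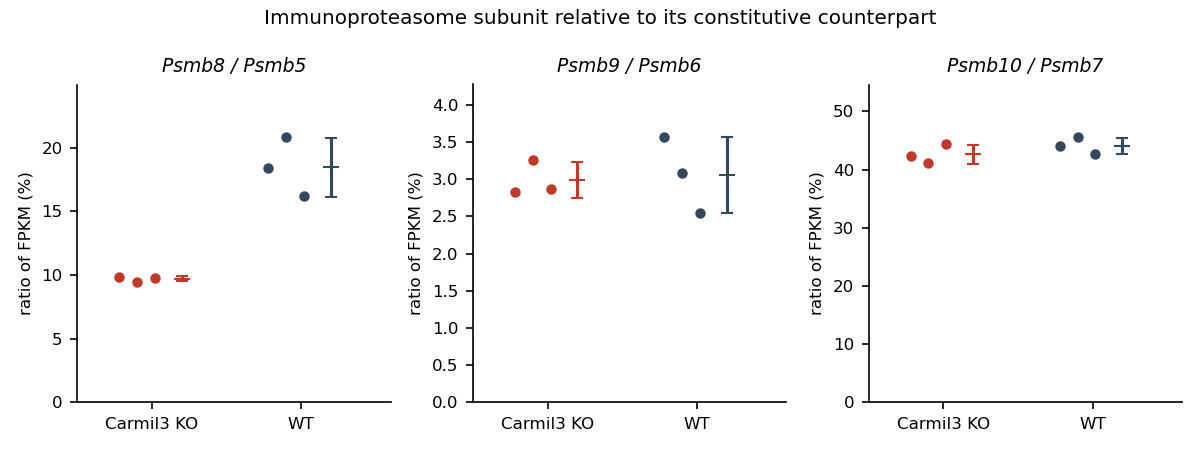
FPKM of each immunoproteasome subunit as a percentage of its constitutive counterpart in the same library, on axes that start at 0, with Carmil3 knockout in red, wild type in dark blue, and the mean ± SD beside the points (n = 3). The 3 knockout libraries lie between 9.49% and 9.84% for Psmb8 over Psmb5, below all wild-type libraries, and the groups overlap for the other pairs.

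The PA28 activator subunits were the most abundant of the 10 genes and showed no change that passed the test. Psme1 (ENSMUSG00000022216, chromosome 14, 55578123 to 55581529, plus strand) measured 34.5, 34.2 and 36.3 FPKM in knockout and 34.6, 34.8 and 33.2 FPKM in wild-type libraries. Its log2 change was 0.03, with a 95% confidence interval from -0.08 to 0.15 (adjusted p = 0.658, limma). Psme2 (ENSMUSG00000079197, chromosome 14, 55587441 to 55591113, minus strand) measured 35.5, 35.5 and 41.4 FPKM in knockout and 34.9, 35.4 and 36.9 FPKM in wild-type libraries. Knockout replicate 3 was the highest of the 6, and the other libraries lay close together. The log2 change of Psme2 was 0.06, with an interval from -0.09 to 0.22 (adjusted p = 0.499, limma). With 1366 to 1454 reads for Psme1 and 1111 to 1325 reads for Psme2 per library, these are among the best-counted of the 10.

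Tap1 was lower in knockout cells, and Tap2 was not called. Tap1 (ENSMUSG00000037321, chromosome 17, 34187553 to 34197225, plus strand) encodes a subunit of the peptide transporter. It measured 2.33, 2.42 and 2.21 FPKM in knockout libraries, against 3.02, 2.999 and 3.21 FPKM in wild-type libraries. All knockout values lay below all wild-type values. The means were 2.32 ± 0.102 FPKM in knockout and 3.08 ± 0.115 FPKM in wild-type cells (SD, n = 3), with a log2 change of -0.30 ± 0.065 (SE) and adjusted p = 0.00865 (limma). The reads behind these values numbered 220 to 245 in knockout and 292 to 329 in wild-type libraries. Tap2 (ENSMUSG00000024339, chromosome 17, 34203527 to 34216321, plus strand), its partner subunit, measured 2.36, 2.76 and 3.11 FPKM in knockout and 3.93, 3.09 and 3.46 FPKM in wild-type libraries. Knockout replicate 3 and wild-type replicate 2 were about level, which made the groups overlap. Its log2 change was -0.27, close to that of Tap1, with a wider interval from -0.49 to -0.04 and adjusted p = 0.0644 (limma). It passed with limma-voom (adjusted p = 0.0398), without knockout replicate 3 (0.0352) and after centring on neighbouring genes (0.0349). The ratio of Tap1 to Tap2 above gives no separation of the groups.

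Erap1, the aminopeptidase that trims peptides in the endoplasmic reticulum (ENSMUSG00000021583, chromosome 13, 74639568 to 74693201, plus strand), was lower in knockout cells. It measured 6.12, 6.29 and 5.71 FPKM in knockout libraries, against 7.36, 8.14 and 7.21 FPKM in wild-type libraries. The groups did not overlap. The means were 6.04 ± 0.298 FPKM in knockout and 7.57 ± 0.496 FPKM in wild-type cells (SD, n = 3), and the log2 change was -0.28 ± 0.066 (SE) with adjusted p = 0.0115 (limma). Tapbp, which encodes tapasin (ENSMUSG00000024308, chromosome 17, 33915899 to 33929292, plus strand), measured 17.2, 16.3 and 18.2 FPKM in knockout and 18.3, 19.3 and 18.9 FPKM in wild-type libraries. The groups were separate by a small margin. Its log2 change of -0.13 (interval from -0.26 to 0.01) did not pass, with adjusted p = 0.122 (limma). It passed without knockout replicate 3 (adjusted p = 0.0388) and after centring on neighbours (0.017). Tapbpl (ENSMUSG00000038213, chromosome 6, 125223933 to 125231860, minus strand) ranged from 1.88 to 2.62 FPKM in knockout and from 2.25 to 2.66 FPKM in wild-type libraries. Its log2 change was -0.06, with an interval from -0.29 to 0.17 (adjusted p = 0.691, limma).

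**Figure D3:**
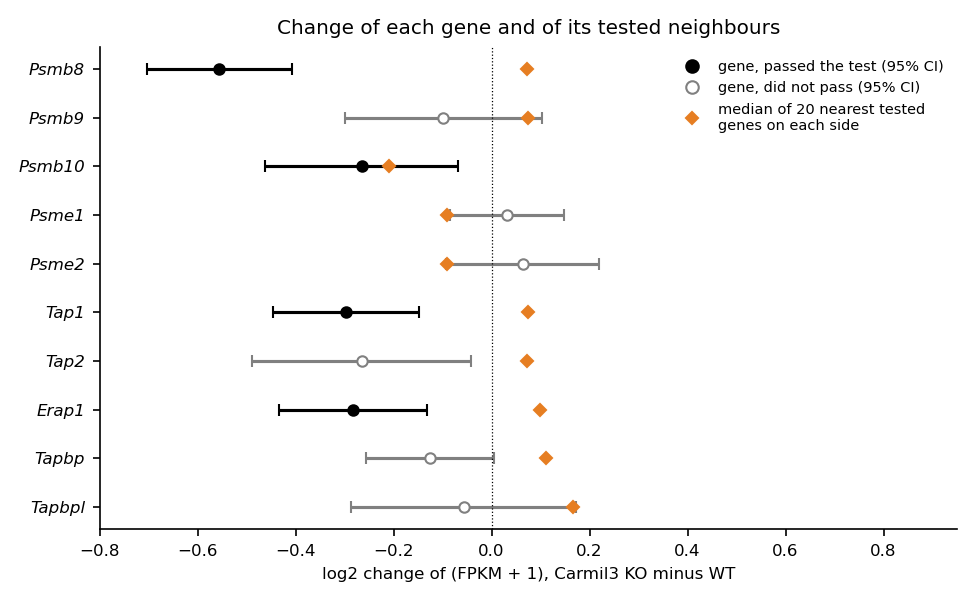
Log2 change of (FPKM + 1), Carmil3 knockout minus wild type, of each gene with its 95% confidence interval from limma, filled black where the gene passed the test and open grey where it did not. Orange diamonds mark the median change of the 20 tested genes closest on either side, which is 0.07 around Psmb8, -0.21 around Psmb10 and -0.09 around Psme1 and Psme2.

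In order of mean FPKM, which depends on the exon lengths used, the genes ran Psme2, Psme1, Tapbp, Psmb10, Erap1, Psmb8, Tap2, Tap1, Tapbpl and Psmb9 in wild-type cells. In knockout cells the order was the same except that Tapbpl (2.33 FPKM) and Tap1 (2.32 FPKM) changed places. The libraries of neighbours in the order overlapped for Psme2 and Psme1 and for Tap2, Tapbpl and Tap1 in knockout cells, and for Tap2 and Tap1 in wild-type cells. The summed level of the 10 genes was 115.2 to 126.7 FPKM in knockout and 125.1 to 127.9 FPKM in wild-type libraries. Psme1 and Psme2 make up more than any other pair of that sum, so it says little of the low-level genes.

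Reads of overlapping genes limit some of these values. No strand setting is given, which matters for overlaps on opposite strands. All but Psme2 of the 10 overlap another annotated gene. Psmb9 and Tap1 overlap each other by 212 bases. The whole of Tapbpl, 7928 bases, lies within the span of Vamp1 on the opposite strand, and Vamp1 measured 0.901 ± 0.1 FPKM in knockout and 0.544 ± 0.0539 FPKM in wild-type cells (SD, n = 3). Tapbp shares 3422 bases with Zbtb22 on the same strand, where no strand setting could part their reads. Zbtb22 was higher in knockout cells (log2 change 0.23, limma's adjusted p = 0.0214). The antisense genes over Psmb8 and Psmb10, Gm20496 and Gm16156, measured at most 0.322 and 0.221 FPKM in any library.

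Genes next to the 10 did not all move with them. Psmb9, Tap1, Psmb8 and Tap2 stand side by side in the MHC class II region on chromosome 17. Of 12 other tested genes within 250 kb, 5 were higher, 0 were lower and 7 did not pass in knockout cells, with a median log2 change of 0.15. All 12 lie on the side of Psmb9. The risen neighbours with the largest change were H2-DMa, which encodes a subunit of a class II peptide exchange factor (log2 change 0.42), Rgl2 (0.41) and Ring1, a Polycomb subunit gene (0.28). Psme1 and Psme2 lie 69851 and 79169 bases from Carmil3, the deleted gene. Of 15 other tested genes within 250 kb of them, 8 were lower, 0 were higher and 7 did not pass, with a median log2 change of -0.22. Ipo4, an importin gene, fell to 21.25 ± 0.332 FPKM in knockout cells, against 32.35 ± 1.37 FPKM in wild-type cells (SD, n = 3; adjusted p = 6.56e-05, limma), and Rabggta and Nop9 had log2 changes of -0.52 and -0.49. With the median of the surrounding genes subtracted, Psme1 and Psme2 had log2 changes of 0.12 and 0.15 and were still not called (adjusted p = 0.111 and 0.133, limma). The same step left Psmb8 at -0.63, Tap1 at -0.37 and Erap1 at -0.38, all called. Around Psmb10, 4 of 17 tested genes were lower and 0 higher, led by Esrp2 (-0.69), Nfatc3 (-0.50) and Slc7a6 (-0.37). Around Erap1, 2 of 7 were higher and 0 lower, namely Zfp825 (0.46) and Gm47469 (0.26). Around Tapbpl, 4 of 11 were higher and 0 lower, led by Cd9 (0.47), Ncapd2 (0.44) and Gapdh (0.32). Around Tapbp, 9 of 22 were higher and 2 lower, with H2-DMa, Rgl2 and Kank3 (-0.37) changed most.

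**Figure D4:**
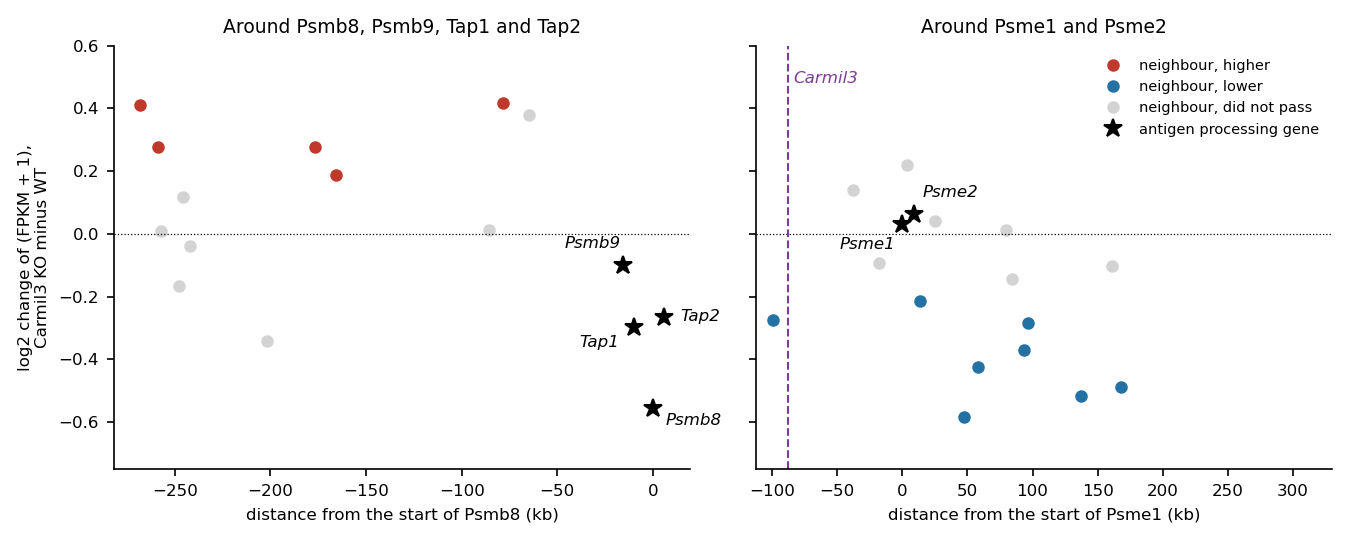
Log2 change of (FPKM + 1), Carmil3 knockout minus wild type, of tested genes within 250 kb, against the distance of their start from that of Psmb8 (left) or Psme1 (right). Stars are the antigen processing genes, red points higher, blue points lower and grey points genes that did not pass, and the dashed line marks the start of Carmil3. The stars on the left lie at or below -0.10 while 5 neighbours are higher, and the stars on the right lie near 0 while 8 neighbours are lower.

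The proteins with which these genes act gave a mixed picture. Of 5 partners in the class I loading complex and its folding, Calr, Hspa5 and B2m were lower in knockout cells and none was higher (0 also at an unadjusted p under 0.05 and with limma-voom). Calreticulin (Calr) was at 194 ± 6.38 FPKM in knockout and 259 ± 8.57 FPKM in wild-type cells (SD, n = 3; log2 change -0.41, adjusted p = 0.000812, limma). B2m, the light chain of class I molecules, was at 635 ± 58.4 FPKM in knockout and 759 ± 26.3 FPKM in wild-type cells (SD, n = 3; adjusted p = 0.0303, limma). Canx and Pdia3, a chaperone and an oxidoreductase of the complex, had log2 changes of -0.08 and -0.06 and did not pass. Without knockout replicate 1 or 2, or wild-type replicate 1 or 2, the count of lower genes in this list was 1, Calr. After centring on neighbours the log2 change of Calr was -0.17 and did not pass (adjusted p = 0.0567, limma). The call of B2m was also lost without wild-type replicate 3, with no filter and with median-of-ratios rescaling (adjusted p = 0.0807, 0.0671 and 0.0523, limma). Hspa5, the chaperone BiP, had a log2 change of -0.28. Among 9 tested genes, class I heavy chains and Nlrc5, 3 were lower and 2 higher (1 higher without wild-type replicate 1, 3 without knockout replicate 2). The log2 changes of the called genes were -0.69 for H2-Q7, -0.57 for H2-Q6 and -0.31 for H2-D1, against 0.25 for H2-T22 and 0.91 for H2-T23. H2-K1, at -0.34, did not pass (adjusted p = 0.0947, limma). It passed with limma-voom (adjusted p = 0.0489), without knockout replicate 3 (0.0468, limma) and after centring on neighbours (0.0492, limma). The count of lower genes was then 4. The heavy chain sequences are so alike that their counting is uncertain. Nlrc5, the transcriptional activator of class I genes, measured 3.71 ± 0.521 FPKM in knockout and 4.30 ± 0.35 FPKM in wild-type cells (SD, n = 3; adjusted p = 0.182, limma).

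Of the 14 other subunits of the 20S core, 2 were lower (Psma3 and Psmb3, log2 changes -0.29 and -0.27), 0 were higher and 12 did not pass, with a median log2 change of -0.07. At an unadjusted p under 0.05, 3 were lower and 1 higher; limma-voom called 2 lower and 0 higher. Without knockout replicate 3 the count of lower genes was 5, and it was 1 without knockout replicate 2, wild-type replicate 1 or wild-type replicate 3 and after centring on neighbours. Without wild-type replicate 3, 1 gene, Psmb5, was higher. Of the 7 counterparts and other activators or regulators of the proteasome, 2 were lower and 0 higher (3 and 1 at an unadjusted p under 0.05; 2 and 0 with limma-voom). Without wild-type replicate 3, 1 of the 7, again Psmb5, was higher, and the median log2 change was -0.03, against -0.14 with all libraries. Psme4, which encodes PA200, fell to 22.7 ± 1.82 FPKM in knockout cells, against 34.1 ± 2.01 FPKM in wild-type cells (SD, n = 3; log2 change -0.57, adjusted p = 0.000521, limma). Psme3, which encodes the nuclear activator PA28-gamma, had a log2 change of -0.25 (adjusted p = 0.00403, limma). Of 6 tested peptidases that also cut peptides of the class I route, Lap3, leucine aminopeptidase, was called lower (log2 change -0.26) and 5 did not pass (2 genes were lower without knockout replicate 3). Of 5 tested class II and cross-presentation genes, H2-DMa was higher and 4 did not pass. Its call was lost without wild-type replicate 1 (adjusted p = 0.0837, limma), with no filter (0.0717) and after centring on neighbours (0.0578).

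Genes of interferon reception and class I regulation were higher where they changed. Of 19 tested, 11 were higher, 0 lower and 8 did not pass, with a median log2 change of 0.23. At an unadjusted p under 0.05, 12 were higher and 0 lower, and limma-voom gave the same counts. Jak2, a kinase of the interferon-gamma receptor, rose to 129 ± 1.87 FPKM in knockout cells, against 57.1 ± 2.91 FPKM in wild-type cells (SD, n = 3; log2 change 1.16, adjusted p = 1.87e-06, limma). Relb, an NF-kB subunit gene, and Socs1, an inhibitor of interferon signalling, had log2 changes of 0.60 and 0.52. All 4 interferon receptor chains listed were higher, by 0.23 for Ifnar1, 0.50 for Ifnar2, 0.25 for Ifngr1 and 0.40 for Ifngr2 on the log2 scale. Ifnar2, Ifnar1 and Ifngr2 lie close together on chromosome 16, between 91372783 and 91565623. Irf1, a transcription factor of the immunoproteasome and transporter genes, measured 11.6 ± 0.3 FPKM in knockout and 9.93 ± 0.282 FPKM in wild-type cells (SD, n = 3; log2 change 0.20, adjusted p = 0.0195, limma). Without wild-type replicate 1 the count of higher genes in this list was 7. After centring on neighbours it was 10. There, Irf3 and Nfkb1 lost their calls (adjusted p = 0.21 and 0.223, limma) and Irf2 gained one (adjusted p = 0.0131, limma). The call of Irf1 was lost without knockout replicate 2, wild-type replicate 1 or wild-type replicate 3, that of Ifngr1 without knockout replicate 2 or wild-type replicate 1, and that of Ifnar1 without any 1 library other than knockout replicate 3. Of 8 tested interferon-inducible genes, Isg15 (log2 change 0.77) and Irgm2 (0.25) were higher and Ifit2 (-1.30) was lower, and the other 8 genes of that list did not pass the expression filter. The count of higher genes there was 1 without knockout replicate 1 or any 1 of the wild-type libraries. Psmb8, Tap1, Erap1 and, less firmly, Psmb10 were thus lower in libraries in which Jak2, Ifnar2 and Ifngr2 were higher. Other signalling genes of the same list did not pass, with log2 changes of -0.05 for Jak1, 0.01 for Stat2, 0.04 for Irf9 and 0.025 for Irf2. A link between these differences was not tested.

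**Figure D5:**
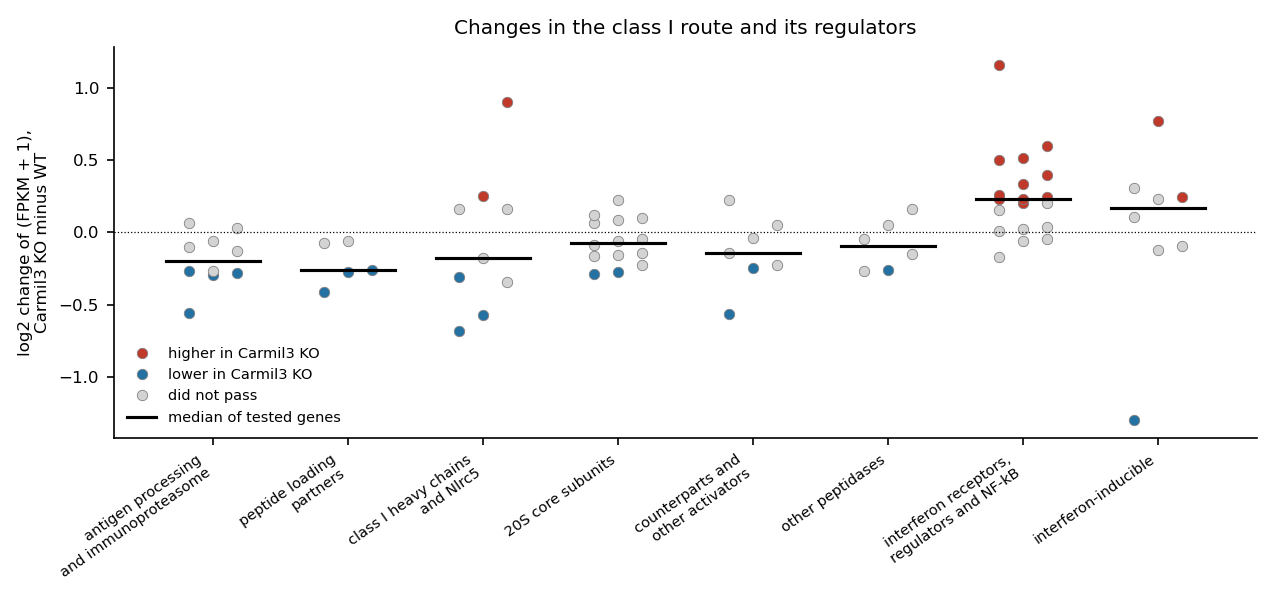
Log2 change of (FPKM + 1), Carmil3 knockout minus wild type, of each tested gene in 8 lists of the class I route, red where higher, blue where lower and grey where the test was not passed. Black lines are list medians, which are -0.20 for the antigen processing and immunoproteasome genes and 0.23 for the interferon and class I regulators.

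Across the 6 libraries, the profile of Psmb8 was most like those of Plvap, Psmc1, Slc25a5, Cpe and Reep5, with Pearson's r of log2(FPKM + 1) between 0.9977 and 0.9985 among 7607 genes with a higher group mean of at least 5 FPKM. Psmc1 encodes an ATPase of the 19S regulatory particle of the proteasome, and measured 142 ± 4.97 FPKM in knockout and 177 ± 2.58 FPKM in wild-type cells (SD, n = 3). Such likeness is common here, since the 6 points fall in 2 groups: 811 tested genes, 7.26%, had r over 0.95 with Psmb8. Among the 10 genes, Psmb8 had r = 0.94 with Tap1, 0.86 with Erap1 and 0.84 with Psmb10, Tap2 and Tapbp. Its r was -0.33 with Psme1 and -0.25 with Psme2. These values are descriptions over 6 libraries that share the group difference and, within a library, its depth.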

How the data were processed

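RNA sequencing of 6 mouse 4T1 libraries was analysed from 1 deposited table. Its values have the form of FPKM, which the authors scaled for exon length and depth (no header names the unit). Per the submitters' processing notes, the tools were HTSeq 0.6.0, TopHat2 2.0.12, TopHat, Bowtie2, Bowtie and CASAVA, and the build was mm10. Which step used which tool, the annotation and the strand setting: not given in the sources used here. Sample titles give the groups and replicate numbers.

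Ensembl identifiers were looked up in GENCODE M21 (GRCm38), which named 23577 of 23644 genes. The test was limma 3.58.1 (R 4.3.3) on log2(FPKM + 1), with a mean-variance trend and robust moderation and Benjamini-Hochberg adjustment. It took in 11171 genes that reached 1 FPKM in 3 or more libraries, among them all 10 described here. Log2 changes on this scale understate the change of low genes. The code was tested on simulated data. Ratios were compared by exact permutation (scipy 1.17.1); Python 3.11.15, pandas 2.3.3, numpy 2.4.6 and matplotlib 3.10.9 served for tables and figures.

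Value times exon length was a whole multiple of 1 step per library, within 0.02 of a read, for 91.9% to 92.2% of values up to 500 reads, and for 8 of the 10 genes within 0.03. Read numbers are therefore inferred. For Psmb8 and Tapbp, limma-voom used reads taken at the annotated exon lengths of 3381 and 3628 bases. That gave more reads than the lengths of 2736 and 3296 bases at which their reads are whole. Chi-square per degree of freedom between replicates was 3.02 to 19.05, so the 6 libraries were counted separately.

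The genes, lists and tests were chosen with earlier results of these data known. Named beside the 10 genes are preset members of the lists, the up to 3 called genes per list and direction, or per place, with the largest change, and the 5 genes most like Psmb8; a few others were named after their values were seen. Of the preset members, 1 is not reported here. Alternatives were other pseudocounts and filters, rescaling, quantile normalization, plain eBayes, testing for more than a 1.5-fold change, the replicate block, leaving out each library, limma-voom on recovered reads, and centring (subtraction of the median log2 change of 20 tested genes to each side).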

Additional observations from a re-analysis of the deposited data

How the results depend on the processing

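The count of genes called lower was 4. It lay between 3 and 6 with 1 library left out and between 3 and 5 under the other alternatives, except the 1.5-fold test. The number of lower genes among all 11171 tested also moved, from 2087 with all libraries. With 1 library left out it lay between 1358 (without wild-type replicate 1) and 2218 (without knockout replicate 3). After centring on neighbours it was 1510. A filter of 5 FPKM left only 6 of the genes described here to test, so its count is not comparable with the others. Against a 1.5-fold change the count among the genes described here was 0. On log2(FPKM + 1) even the largest change, -0.56 for Psmb8, is short of 1.5-fold, so that test could call none of these genes. That scale understates low genes: the log2 change of Psmb8 was -0.69 with limma-voom, and its ratio of mean FPKM was 0.621. The 0 therefore does not show that Psmb8 changed by less than 1.5-fold. No alternative called a gene higher. Psmb8, Tap1 and Erap1 kept their calls under each alternative that tested them other than the 1.5-fold test; a filter of 5 FPKM left out Tap1, Tap2, Tapbpl and Psmb9. Psmb10 lost its call under 9 of 17 alternatives, among them no filter (adjusted p = 0.117, limma), median-of-ratios rescaling (0.0513) and eBayes without trend and robust (0.0588). With 1 library left out the log2 change of Tapbpl ranged from -0.12 to 0.046, positive without knockout replicate 1, and that of Psme2 from -0.008 without knockout replicate 3 to 0.10. Neither was called in any setting. The difference in log2 ratio of Psmb8 to Psmb5 was -0.78 with a pseudocount of 1, which shrinks the ratio of low values by construction. Against a 1.5-fold change the lists of the class I route and its regulation kept 1 called regulator, 1 heavy chain and 1 interferon-inducible gene, and the marker lists kept 8 epithelial, 1 leukocyte and 1 fibroblast gene. The cause of the other shifts was not tested.

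Whether the replicate numbers pair the libraries is not settled. Deviations from the group means correlated at -0.06, 0.15 and 0.10 for numbers 1 to 3, and between -0.20 and 0.08 for unlike numbers. With the replicate block 4 of the 10 genes were lower and 0 higher, against 2127 and 1900 of the 11171 genes tested. The adjusted p of Psmb10 was then 0.0125 (limma), and Psmb7 was called lower (0.0372, limma). The count of higher interferon-inducible genes with the block was 1, against 2 without it, since Irgm2 did not pass (adjusted p = 0.0603, limma). The block cannot change a difference of means in this balanced design, so the ratio differences (-0.92 for Psmb8 to Psmb5) say nothing of stability. Depth limits Psmb9 and Tapbpl most, with as few as 77 and 84 reads in a library.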
